A study of Mus musculus with 6 samples.

Results

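Of the genes that drive DNA replication and mitosis, 34 were followed through palatal shelves of mouse embryos at E14.25. They were chosen as a list of symbols, and all 34 were among the 23366 genes named in the count files and among the 14233 with enough counts to be tested. Of these, 15 act in or before S phase and 19 in mitosis. A wild type group (replicates 2, 3 and 4) was compared with a group whose genotype is given as Kmt2dfl/fl Wnt1-Cre (replicates 1, 2 and 3), in which floxed Kmt2d is deleted by a Cre expressed in the premigratory neural crest. Kmt2d encodes a histone H3 lysine 4 methyltransferase. The labels name no treatment, and they do not state whether the wild type embryos carried Cre or a floxed allele. Wnt1-Cre acts in the crest lineage, which gives most of the shelf mesenchyme, so the shelf epithelium, blood vessels and leukocytes keep the gene. The labels call the libraries of each group biological replicates and do not say whether 1 library came from 1 embryo, so the tests measure the spread between libraries.

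Cells copy their DNA once per cycle. In G1 the MCM helicase is loaded onto origins by factors such as Cdc6, cyclin E and E2F factors bring the cell into S phase, and the replication fork then works with the sliding clamp Pcna and with nucleotides from ribonucleotide reductase and thymidylate synthase. B cyclins, Plk1 and the Aurora kinases drive entry into mitosis, the kinetochore and the checkpoint hold chromosomes until all are attached to the spindle, and the anaphase-promoting complex ends mitosis by marking cyclins for degradation. Palatal shelves grow by proliferation of crest-derived mesenchyme, so transcripts of these genes are a usual readout of the share of cycling cells. In counts from whole tissue, fewer cycling cells and less RNA per cycling cell cannot be told apart.

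Transcription of the 2 phases is known to run through different promoter elements: E2F sites in many S phase genes, and the cell cycle genes homology region (CHR), often with CCAAT boxes, in many mitotic genes. RefSeq promoter windows on build GRCm38.p6, from 250 bases before to 50 bases after the start, were found for 28 of the 34 members and not for Mcm4, Ccne2, Ccna2, Aurkb, Kif20a and Tpx2. An E2F spelling (TTTGGCGC, TTTCCCGC, TTTCGCGC or TTTGCCGC, on either strand) was in 5 of 12 S phase members (41.7%), in 0 of 16 mitosis members and in 2.60% of all 27025 genes with a window. A CHR spelling (TTTGAA or TTCGAA, on either strand) was in 2 of 12 S phase members (16.7%), in 12 of 16 mitosis members (75%) and in 21.7% of all genes. CCAAT, on either strand, was in 8 of 12 and 14 of 16 members (66.7% and 87.5%) and in 41.1% of all genes. Some matches overlapped, as in the paired E2F spellings of Mcm5 and Mcm6, and a match is a run of letters and not a measured site. The 4 upstream stretches below are examples that hold these spellings, with the matches in capitals, and do not stand for all members of a phase. They are given 5′ to 3′ on the strand of the gene, for Mcm5 chr8:75109349-75109508 (plus strand), for Mcm6 chr1:128359706-128359825 (minus strand), for Cdc20 chr4:118437353-118437463 (minus strand) and for Mki67 chr7:135716459-135716579 (minus strand).
Mcm5: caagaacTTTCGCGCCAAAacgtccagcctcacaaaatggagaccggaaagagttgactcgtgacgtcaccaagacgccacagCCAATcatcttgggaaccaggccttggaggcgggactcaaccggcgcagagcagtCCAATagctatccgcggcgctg
Mcm6: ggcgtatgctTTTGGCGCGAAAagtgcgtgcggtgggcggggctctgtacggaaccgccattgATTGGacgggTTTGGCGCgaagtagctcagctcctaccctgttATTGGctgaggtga
Cdc20: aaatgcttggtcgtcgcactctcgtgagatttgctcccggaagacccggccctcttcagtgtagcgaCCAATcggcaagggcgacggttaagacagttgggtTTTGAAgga
Mki67: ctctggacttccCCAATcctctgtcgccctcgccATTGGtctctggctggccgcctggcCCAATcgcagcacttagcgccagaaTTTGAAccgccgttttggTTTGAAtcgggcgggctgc
In Mcm5 and Mcm6 the capitals mark a pair of overlapping E2F spellings, 1 on each strand, and CCAAT boxes (ATTGG where read on the other strand), and in Mcm6 also a separate TTTGGCGC nearer the start. In Cdc20 and Mki67 they mark TTTGAA with CCAAT boxes upstream of it. The windows of Ccne1, E2f1, Tyms, Birc5 and Nusap1 held none of these spellings, which says only that these letters are not in them.

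Libraries held 12721979 to 24916079 read pairs in genes, and each member had between 260 and 16100 pairs in every library. Knockout replicate 2 stood apart: the share of its listed pairs that lay outside genes was 47.5%, and that of the remaining 5 libraries 12.3% to 18.1%, and in a fit with sample quality weights (limma voom) it received a weight of 0.178 against 0.755 to 2.01. Results are therefore given with and without it. The share of listed pairs in genes moved with the groups. It was 63.6% to 66.4% in the wild type but 51.4%, 34.2% and 57.8% in knockout replicates 1, 2 and 3. Rn45s, which holds ribosomal RNA sequence, took 16.2% to 20.7% of gene counts in wild type libraries and 35.1%, 18.6% and 30.0% in those of the knockout. It was thus raised in knockout replicates 1 and 3, with knockout replicate 2 inside the wild type range. The part of these measures in the values of the members was not tested. Leaving out Rn45s and Lars2 gave 0 members past the threshold, where 0.576% of all tested genes passed, and a member median log2 fold change of -0.12. Kmt2d, listed as Mll2, stood at 197, 211 and 171 CPM (counts scaled to the library size, itself adjusted by the trimmed mean of M-values) in the wild type and at 254, 539 and 193 CPM in the knockout. Here and in all sentences with 3 values a group, libraries are in the order wild type 2, 3, 4 and knockout 1, 2, 3. The log2 fold change of Kmt2d was 0.77 (SE 0.35, adjusted p = 0.368, edgeR), and 0.21 without knockout replicate 2, so no fall was seen. Exons that Cre leaves in place and cells outside the crest can add to this count, and their part was not tested. The count by itself is no check of the labels. All 12 palatal mesenchyme markers were detected. Their summed level was 1655 to 1724 CPM in the wild type and 1876 to 2215 CPM in the knockout. Prrx1 made up the largest part of that difference (means of 591 against 801 CPM). The median log2 fold change of the 12 was 0.08, and those of Osr2, Barx1, Meox2, Tbx22 and Twist1 were below 0. Sums of other cell types also moved with the groups: 589 to 729.8 against 317 to 565 CPM for 10 epithelial markers, 273 to 299 against 217 to 252 CPM for 7 endothelial markers and 48.9 to 54.6 against 32.8 to 40.4 CPM for 7 leukocyte markers. Mrc1 made up the largest part of the leukocyte difference (means of 24.9 against 12.1 CPM). The leukocyte markers did not all move the same way. Log2 fold changes of Cd68 and Itgam were above 0 (0.85 and 0.60), and those of the rest were below 0. The 7 skeletal muscle markers summed to 1215 CPM in knockout replicate 2 and to 201 to 494 CPM in the other libraries. Erythroid markers overlapped between the groups (24.0 to 43.9 against 13.7 to 48.7 CPM), as did glial and melanoblast markers (28.2 to 28.8 against 24.4 to 39.99 CPM). The defining markers were above 0 in every library except Hba-a1, at 0 in all 6, and Dct, at 0 in knockout replicate 2. The part of these shifts in the values of the cell cycle genes was not tested.

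No replication or mitosis member passed the threshold in the comparison of the 2 groups. With edgeR's quasi-likelihood test and Benjamini-Hochberg adjustment over all tested genes, 0 of 34 members were higher and 0 were lower at an adjusted p under 0.05, where 0.0984% of all tested genes were called higher and 0.436% lower. At an unadjusted p under 0.05, 1 member of 34 (2.94%), Ccne1, was lower and 0 were higher, against 6.69% and 7.51% of all tested genes. DESeq2 and limma voom also called 0 members, where they called 3.41% and 0.422% of all tested genes. Each gave 1 member an unadjusted p under 0.05, against 2200 and 1844 of the 14233 tested genes. The median log2 fold change (knockout over wild type) was -0.09 over the members and 0.01 over all tested genes, with 29 of 34 members below 0 against 48.5% of all tested genes. Without knockout replicate 2 the member median was 0.016, the same as the 0.016 of all genes, 15 of 34 members were below 0, and again 0 members passed (2.12% of all genes did, smallest adjusted p of a member 0.162, edgeR). The direction of the member median thus rested on 1 library. With another library left out, 0 members passed either, and the called share of all genes was 0% (wild type replicate 2 or 3), 0.0207% (wild type replicate 4), 0.138% (knockout replicate 1) or 0.0755% (knockout replicate 3).

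Intervals of the fitted differences bound their size. The 95% interval of the fitted log2 fold change lay inside a 2-fold change in either direction for each of the 34 members, and inside a 1.5-fold change for 28 of them. Those with an interval reaching past 1.5-fold were Mcm2, Mcm3, Pcna, Rrm2, Ccne1 and Cdc20, in each case on the lower side. Without knockout replicate 2, the intervals of all 34 lay inside 1.5-fold. The lowest limit with all libraries belonged to Pcna, whose interval ran from -0.86 to 0.17 on the log2 scale, and from -0.34 to 0.08 without knockout replicate 2. Cdc20 had the widest interval with all libraries, from -0.79 to 0.32. These intervals are for 1 gene at a time and are not adjusted for the number of genes.

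**Figure D1:**
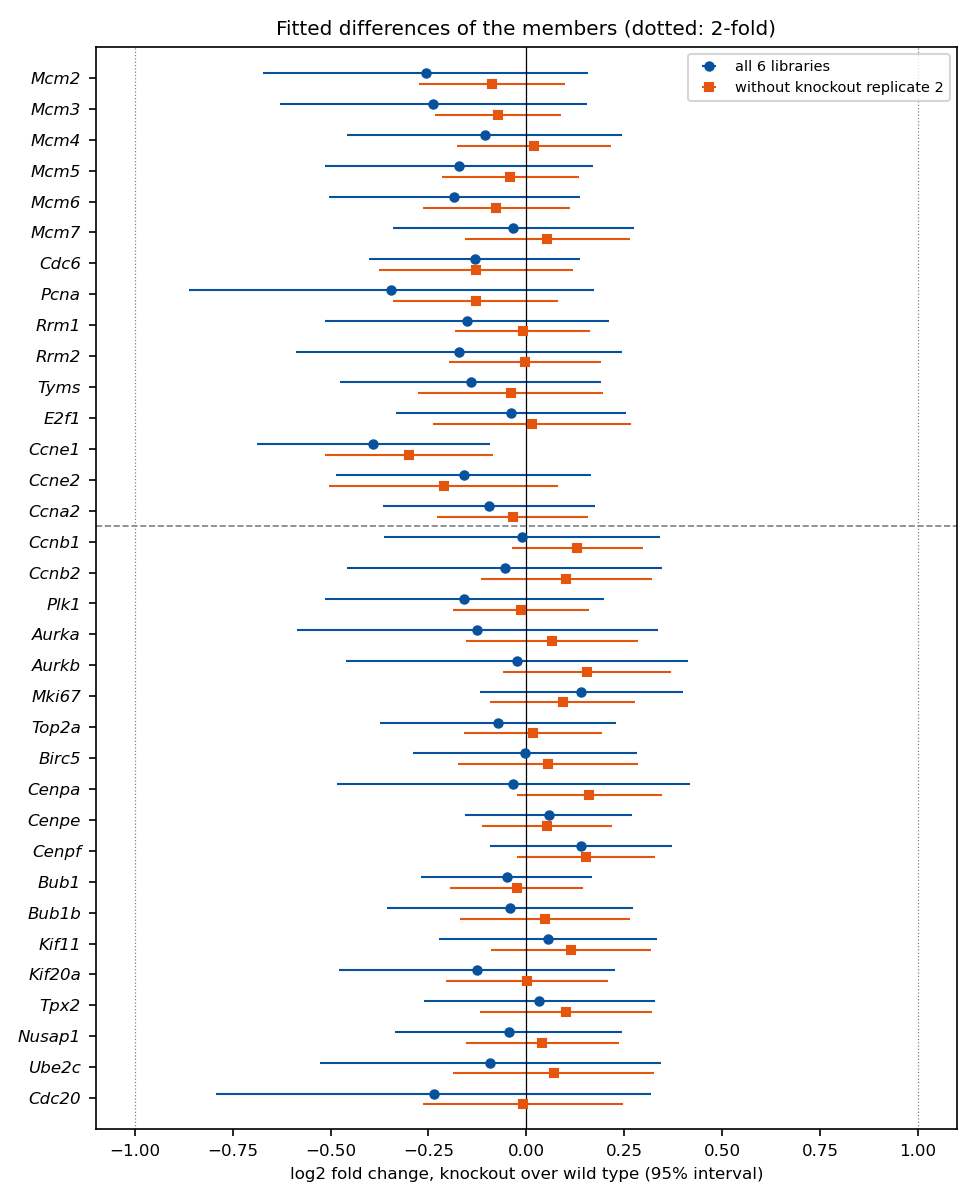
Fitted log2 fold change of each member (x axis, knockout over wild type) with its 95% interval from edgeR, for all 6 libraries (circles) and without knockout replicate 2 (squares). All intervals lie inside the dotted lines of a 2-fold change, and only Ccne1 has an interval that does not include 0 in either fit.

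Values by library show where the spread came from. Knockout replicate 2 had the lowest level of the 6 libraries for 27 of the 34 members (79.4%), whereas it was lowest for 36.3% of all tested genes and highest for 34.7%. Its median member stood at 0.754 of the wild type mean, against 0.979 in knockout replicate 1 and 1.05 in knockout replicate 3. Within the wild type the members varied little, with a median coefficient of variation of 7.21%, and in the knockout group it was 15.2%. For all tested genes these were 8.22% and 19.3%. Wild type replicate 4 tended to the upper side and held the highest level of 15 members, 12 of them S phase genes.

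**Figure D2:**
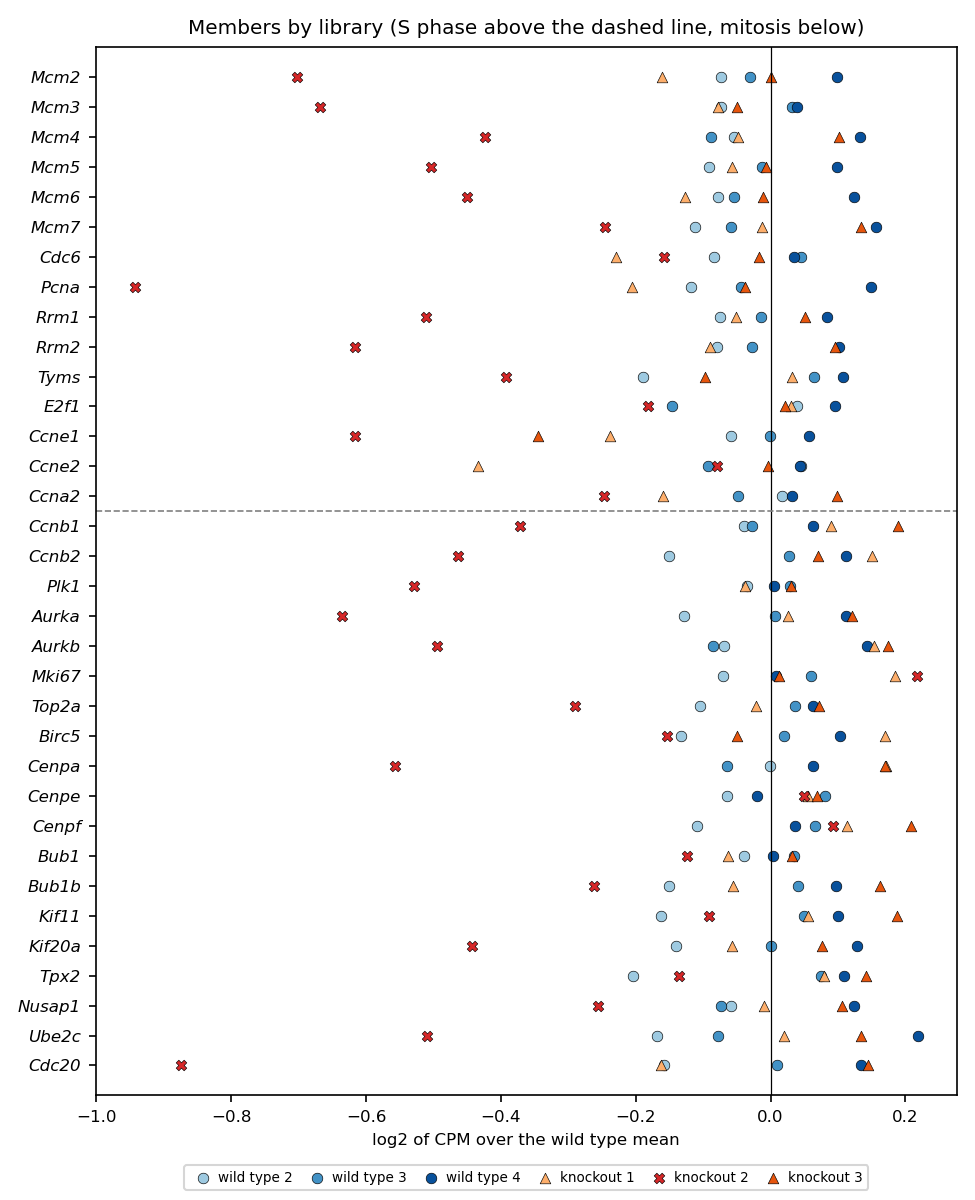
Level of each member in each library as log2 of its CPM over the wild type mean (x axis), with wild type libraries as circles, knockout replicates 1 and 3 as triangles and knockout replicate 2 as crosses. The crosses are the leftmost points for 27 of 34 members, the exceptions being Cdc6, Ccne2, Mki67, Cenpe, Cenpf, Kif11 and Tpx2.

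Ccne1, which encodes cyclin E1, the partner of Cdk2 at the G1/S transition, came closest to a difference. It stood at 32.2, 33.5 and 34.9 CPM in the wild type and at 28.4, 21.9 and 26.4 CPM in the knockout. Every knockout library was below every wild type library. The log2 fold change was -0.39 (SE 0.13, 95% interval -0.69 to -0.09), with an adjusted p of 0.280 in edgeR's quasi-likelihood test. With single libraries left out it ran from -0.47 to -0.30, and over the 17 alternatives its adjusted p lay between 0.130 and 0.682, so it never passed. Non-overlap in this direction was seen in 11.2% of all tested genes and in 1 of 34 members, Ccne1 itself.

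Its paralogue Ccne2, cyclin E2, did not show this separation. Ccne2 stood at 30.5, 27.7 and 30.5 CPM in the wild type and at 21.9, 28.0 and 29.5 CPM in the knockout. One knockout library was low and the others lay within the wild type range. The log2 fold change was -0.16 (SE 0.14, adjusted p = 0.601, edgeR). The difference between the paralogues was not tested. E2f1, the transcription factor that activates many S phase genes, stood at 20.2 to 23.8 CPM in the wild type and 19.7 to 22.8 CPM in the knockout (log2 fold change -0.04, adjusted p = 0.903, edgeR). Ccna2, cyclin A2 of S and G2 phase, stood at 140.3 to 148 CPM and 122 to 155 CPM (log2 fold change -0.09, adjusted p = 0.713, edgeR).

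The MCM helicase genes had log2 fold changes below 0 in all 6 cases, none past the threshold. Mcm2 stood at 128, 132 and 144 CPM in the wild type and at 120.3, 82.7 and 135 CPM in the knockout (log2 fold change -0.26, SE 0.18, adjusted p = 0.511, edgeR). Mcm3 stood at 119, 128 and 129 CPM and at 119, 79.1 and 121 CPM (log2 fold change -0.24, SE 0.17, adjusted p = 0.522, edgeR). In both genes knockout replicate 2 was far below the rest, and knockout replicate 3 lay inside the wild type range. Knockout replicate 1 was also below every wild type library in both. For Mcm3 its margin was small (119.07 against 119.38 CPM in wild type replicate 2). Mcm5 stood at 126, 133 and 143 CPM in the wild type and at 129, 94.4 and 133 CPM in the knockout (log2 fold change -0.17, SE 0.15, adjusted p = 0.591, edgeR). Mcm6 stood at 204, 208 and 235 CPM in the wild type and at 198, 158 and 214 CPM in the knockout (log2 fold change -0.18, SE 0.14, adjusted p = 0.543, edgeR). Mcm4 and Mcm7 had log2 fold changes of -0.11 and -0.03. Without knockout replicate 2 the log2 fold changes of the 6 subunits ran from -0.09 for Mcm2 to 0.05 for Mcm7, and those of Mcm4 and Mcm7 were above 0.

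These subunits form a hexamer with 1 copy of each, and their transcript levels per length were alike. In wild type libraries they ran from 39.6 CPM per kb for Mcm5 to 51.3 CPM per kb for Mcm4, a ratio of 1.30, and in the knockout from 33.4 for Mcm2 to 47.7 CPM per kb for Mcm4, a ratio of 1.43. Cdc6, which loads the helicase, had the lowest level per length of the 34 members, 5.27 CPM per kb in the wild type and 4.81 CPM per kb in the knockout. It stood at 23.0, 25.1 and 24.9 CPM in the wild type and at 20.8, 21.8 and 24.0 CPM in the knockout (log2 fold change -0.13, SE 0.12, adjusted p = 0.602, edgeR). Here knockout replicate 1 and not replicate 2 was the lowest library, and the groups overlapped.

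Pcna had the highest level per length of all members, 122 CPM per kb in the wild type and 96.3 CPM per kb in the knockout. It stood at 171, 180.3 and 206 CPM in the wild type and at 161, 96.6 and 181 CPM in the knockout. The value in knockout replicate 2 was 0.520 of the wild type mean, the lowest such ratio among the members. Knockout replicate 1 was also below every wild type library, and knockout replicate 3 lay within the wild type range. The log2 fold change was -0.35 (SE 0.22, adjusted p = 0.484, edgeR), and -0.13 without knockout replicate 2 (adjusted p = 0.555, edgeR). Rrm1 and Rrm2, the large and small subunits of ribonucleotide reductase, stood at 211 to 235 and 91.1 to 103 CPM in the wild type and at 156 to 230.0 and 62.8 to 103 CPM in the knockout. Their log2 fold changes of -0.15 and -0.17 were -0.009 and -0.003 without knockout replicate 2. Tyms, thymidylate synthase, stood at 45.8 to 56.2 CPM and 39.7 to 53.3 CPM (log2 fold change -0.14, adjusted p = 0.654, edgeR).

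Among genes of mitotic entry, Plk1, the polo-like kinase, had the smallest p. It stood at 53.7, 56.1 and 55.2 CPM in the wild type and at 53.6, 38.1 and 56.2 CPM in the knockout. Apart from knockout replicate 2, its 5 libraries lay within 2.59 CPM of each other. Its log2 fold change, -0.16 (SE 0.15, adjusted p = 0.636, edgeR), was -0.01 without that library (adjusted p = 0.957, edgeR). Ccnb1, cyclin B1, stood at 96.0, 96.8 and 103 CPM in the wild type and at 105, 76.2 and 112 CPM in the knockout, so that 2 knockout libraries were above and 1 below all wild type libraries (log2 fold change -0.01, adjusted p = 0.978, edgeR). The kinase Aurkb had the same pattern, with 40.0, 39.6 and 46.4 CPM in the wild type and 46.8, 29.8 and 47.4 CPM in the knockout. Ccnb2 and Aurka, cyclin B2 and the centrosomal Aurora kinase, had log2 fold changes of -0.06 and -0.12, and of 0.10 and 0.07 without knockout replicate 2.

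Mki67, which encodes the proliferation marker Ki-67, a coat protein of mitotic chromosomes, was among the 5 members with a positive log2 fold change. It stood at 573, 627 and 605 CPM in the wild type and at 684, 699 and 607 CPM in the knockout. Knockout replicates 1 and 2 were above all wild type libraries and knockout replicate 3 was between them (log2 fold change 0.14, SE 0.11, adjusted p = 0.564, edgeR). After removal of the library trends with GC content and length, the value was -0.09. Top2a, topoisomerase II alpha, which untangles sister chromatids, stood at 481 to 539.5 CPM in the wild type and 422 to 543 CPM in the knockout (log2 fold change -0.07, adjusted p = 0.811, edgeR). Birc5, survivin of the chromosomal passenger complex, averaged 53.1 ± 4.34 and 52.9 ± 6.15 CPM (SD, n = 3 each), with an adjusted p = 0.990 (edgeR).

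At the kinetochore, Cenpf, a large outer kinetochore protein, was the 1 member with all knockout libraries above all wild type libraries, a pattern seen in 12.3% of all tested genes. It stood at 167, 188 and 185 CPM in the wild type and at 195, 192 and 208 CPM in the knockout. The log2 fold change was 0.14 (SE 0.10, adjusted p = 0.526, edgeR), and -0.13 after removal of the library trends with GC content and length. Cenpe, a kinesin that links kinetochores to microtubules, stood at 131 to 144 CPM and 141 to 143 CPM (log2 fold change 0.06, and -0.15 after the same removal, adjusted p = 0.783, edgeR). Cenpa, the centromeric histone H3 variant, stood at 45.2, 43.2 and 47.2 CPM in the wild type and at 50.9, 30.7 and 50.8 CPM in the knockout, with 2 knockout libraries above and 1 below the wild type. The checkpoint kinases Bub1 and Bub1b had log2 fold changes of -0.05 and -0.04, and Bub1 had a narrow spread in both groups (69.8 ± 1.79 and 67.4 ± 3.68 CPM, SD, n = 3 each).

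The 4 spindle genes had a median log2 fold change of -0.006. Kif11, the plus-end kinesin that separates the spindle poles, stood at 136 to 163 CPM in the wild type and 143 to 173 CPM in the knockout, and Tpx2, the activator of Aurora A on the spindle, at 108 to 134 and 113 to 137 CPM. Their log2 fold changes were 0.06 and 0.03 (adjusted p = 0.847 and 0.919, edgeR). Kif20a, a kinesin of cytokinesis, and Nusap1, a microtubule bundling protein, had log2 fold changes of -0.12 and -0.04. The partners of the anaphase-promoting complex came last. Cdc20, its activator, stood at 57.4, 64.5 and 70.3 CPM in the wild type and at 57.3, 35.0 and 70.9 CPM in the knockout (log2 fold change -0.24, SE 0.24, adjusted p = 0.654, edgeR), with -0.009 when knockout replicate 2 was left out. Ube2c, its ubiquitin-conjugating enzyme, stood at 59.0 to 77.2 and 46.6 to 72.9 CPM (log2 fold change -0.09, adjusted p = 0.838, edgeR).

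The 2 phases were set side by side as a description, since members are not replicates. The 15 S phase members had a median log2 fold change of -0.16, and all 15 were below 0 (12 to 15 over the alternatives), whereas the 19 mitosis members had a median of -0.04 with 14 below 0 (3 to 16 over the alternatives). Their summed levels were 1649, 1694 and 1861 CPM in the wild type against 1615, 1229 and 1764 CPM in the knockout for S phase, and 2397, 2631 and 2681 against 2687, 2361 and 2738 CPM for mitosis. Knockout replicate 2 was the lowest library in both sums. In the S phase sum knockout replicate 1 was also below all wild type libraries, and knockout replicate 3 lay within their range. In the mitosis sum knockout replicates 1 and 3 exceeded all wild type libraries. For knockout replicate 1 the margin over wild type replicate 4 (2687 against 2681 CPM) was smaller than that of Mki67 alone (684 against 605 CPM). Without knockout replicate 2, 12 of 15 S phase members were below 0 (median -0.04) and 16 of 19 mitosis members above 0 (median 0.07), where 46.7% of all genes tested were below 0. Of these 5 libraries, Ccnb1, Aurkb, Cenpa and Cenpf were higher in both knockout libraries than in all wild type libraries and Ccne1 was lower, 11.8% and 2.94% of members against 18.4% and 15.9% of all genes.

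**Figure D3:**
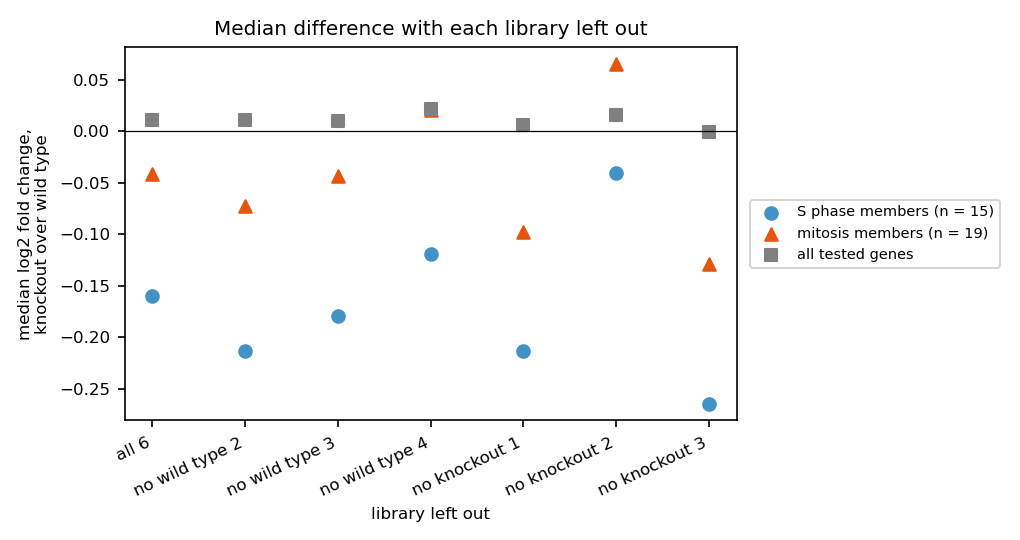
Median log2 fold change (y axis, knockout over wild type) of the 15 S phase members, the 19 mitosis members and all tested genes, with all 6 libraries and with each library left out. The S phase median lies below 0 in each fit, from -0.26 to -0.04, and the mitosis median changes sign without wild type replicate 4 or knockout replicate 2.

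Levels in knockout replicate 2 ran with transcript length. The 3 members with transcripts over 7 kb, Cenpf, Mki67 and Cenpe, stood at 1.04 to 1.16 of the wild type mean in that library, and the other 31 members at 0.520 to 0.947. Across the 34 members, the Spearman correlation of this ratio with transcript length was 0.66 in knockout replicate 2, against 0.09 and -0.02 in knockout replicates 1 and 3. Across the 14124 tested genes with a length it was 0.36 in knockout replicate 2, and between -0.25 and 0.23 in the other libraries. For single wild type libraries it ran from -0.35 to 0.52 across the members, over ratios that stay close to 1. These correlations run across genes of 1 library, which share its preparation and depth, and are given as descriptions. The part of length in the low member levels of knockout replicate 2 was not tested on its own. In the fit with GC content and length trends taken out, 0 members passed (0.766% of all tested genes did) and the member median was -0.13.

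**Figure D4:**
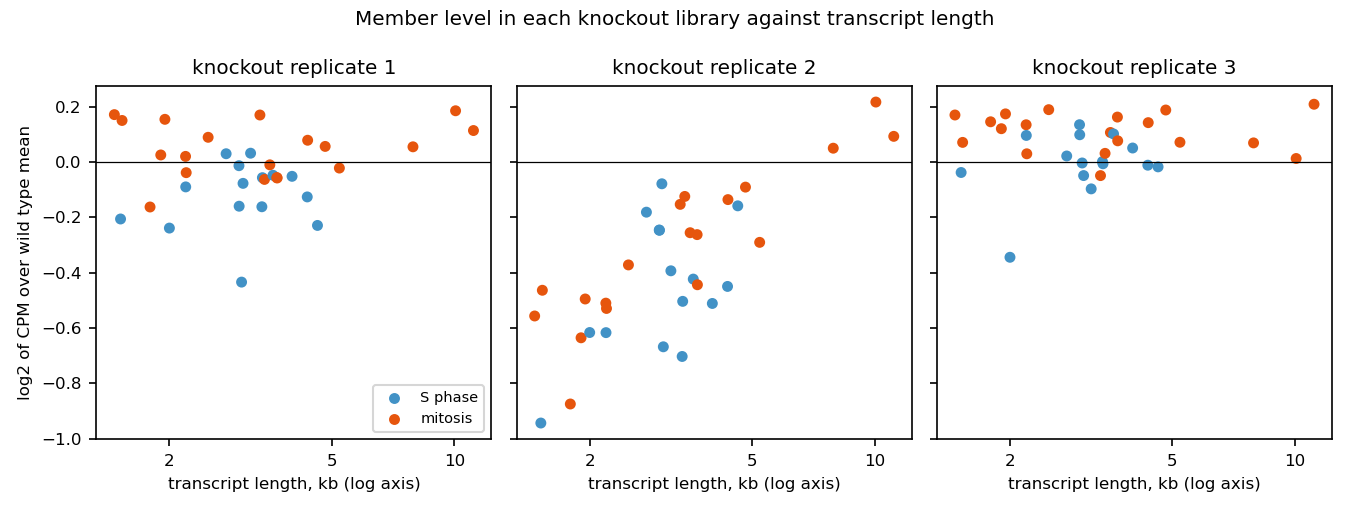
Log2 of CPM over the wild type mean (y axis) against transcript length in kb (x axis, log scale) for the 34 members in each knockout library, S phase members in blue and mitosis members in orange. In knockout replicate 2 the 3 longest transcripts lie above 0 and all others below it, with a rank correlation of 0.66, against 0.09 and -0.02 in knockout replicates 1 and 3.

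Other genes of both phases, on lists that hold none of the 34 members, were looked at in the same way. Of 55 other S phase genes, 0 were higher and 0 lower at an adjusted p under 0.05 (edgeR), 1 had an unadjusted p under 0.05, and the median log2 fold change was -0.04 with 33 below 0. Of 64 other mitosis genes, 0 were higher and 0 lower, 0 had an unadjusted p under 0.05, and the median was 0.03 with 26 below 0. Of all tested genes, 0.534% were called, a share at which lists of this size can be without calls whatever their genes. At an unadjusted p under 0.05, 6.69% of all tested genes were lower and 7.51% higher (edgeR). No gene of either list passed without knockout replicate 2, where 2.12% of all tested genes did. The list medians in that fit were 0.03 and 0.07. Cdc7, the kinase that fires origins, had the smallest p of the S phase list, at 26.8, 27.2 and 26.9 CPM in the wild type and 34.8, 48.2 and 31.1 CPM in the knockout (log2 fold change 0.49, SE 0.17, adjusted p = 0.293, edgeR). All its knockout libraries were above the wild type, with knockout replicate 2 highest, and the log2 fold change was 0.28 without that library. Pole, the catalytic subunit of DNA polymerase epsilon, and E2f8, an E2F repressor, followed with log2 fold changes of 0.27 and 0.25 (adjusted p = 0.372 and 0.376, edgeR). In the mitosis list Hjurp, the chaperone of Cenpa, Bora, an activator of Aurora A toward Plk1, and Cdca2, a phosphatase-targeting protein of anaphase chromatin, had the smallest p, with log2 fold changes of 0.40, 0.36 and 0.21 (adjusted p = 0.368, 0.369 and 0.382, edgeR). Hjurp and Bora were highest in knockout replicate 2, at 39.2 and 37.8 CPM against at most 27.8 and 26.8 CPM in the other libraries.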

How the data were processed

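Counts of read pairs per gene symbol were deposited by the authors, 1 file for each of 6 libraries of paired 25 bp reads, not normalised or pooled. The submitters' processing notes name TopHat2, SAMtools, HTSeq and mm9. Annotation, strand and multiple-alignment settings are not stated there, and pairs with more than 1 alignment were listed apart from the genes. The 5 category lines (33.6% to 65.8% of listed pairs) stayed out of library sizes and tests. Libraries of a group differed beyond sampling noise (chi-square per degree of freedom 11.0 to 153).

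Genes were filtered with filterByExpr and tested with edgeR 4.0.16 (TMM, quasi-likelihood, robust, no covariate) in R 4.3.3, adjusted over all tested genes. Intervals are fitted values with moderated degrees of freedom. Alternatives used DESeq2 1.42.0 and limma 3.58.1. The fit was tested on simulated counts with the spread of the wild type libraries. That spread was smaller than in the knockout libraries, so the simulation does not measure the power of the comparison made here. Transcript length (longest coding transcript) and GC content came from GENCODE M21, and promoter sequences from RefSeq, both of another build than the counts. The members and lists were chosen with earlier results of these data known. Members past the threshold, with separated groups or among the 12 smallest p-values were described in full, and of the other lists the 3 smallest p-values were named when none passed.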

Additional observations from a re-analysis of the deposited data

How the results depend on the processing

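No member passed the threshold under any of the 17 alternatives (smallest adjusted p 0.130, for Ccne1 with DESeq2), and 527 of the 578 single-member values kept their sign and side of the threshold, while 51 changed sign. The count over all genes moved from 76 to 486 with DESeq2, 316 with limma voom and quality weights, 301 with the replicate block and 0 to 307 with 1 library left out. Replicate numbers 2 and 3 occur in both groups, but nothing in the labels ties same-numbered libraries, so the block is given here only. Its sign changes among members were Mcm7 (0.0299) and Bub1b (0.00466). With quality weights the sign changed for Mcm7 (0.0264), E2f1 (0.0310), Ccnb1 (0.0924), Ccnb2 (0.0925), Aurka (0.0206), Aurkb (0.134), Birc5 (0.0872), Cenpa (0.133), Nusap1 (0.0202) and Ube2c (0.0407). With the GC and length trend removed it changed for Mcm7 (0.00845), E2f1 (0.0223), Ccnb2 (0.00869), Aurkb (0.0346), Mki67 (-0.0905), Cenpa (0.0129), Cenpe (-0.152), Cenpf (-0.134), Kif11 (-0.0586) and Tpx2 (-0.0197). With 1 library left out, log2 fold changes ran through 0 for Aurka (-0.27 to 0.065), Aurkb (-0.13 to 0.15), Birc5 (-0.099 to 0.055), Bub1b (-0.16 to 0.048), Ccnb1 (-0.12 to 0.13), Ccnb2 (-0.17 to 0.10), Cenpa (-0.15 to 0.16), E2f1 (-0.11 to 0.016), Kif11 (-0.022 to 0.11), Kif20a (-0.24 to 0.0019), Mcm4 (-0.22 to 0.019), Mcm7 (-0.13 to 0.053), Nusap1 (-0.13 to 0.040), Top2a (-0.15 to 0.016), Tpx2 (-0.061 to 0.10) and Ube2c (-0.22 to 0.070), each highest without knockout replicate 2. The cause of these changes was not tested. The member median ran from -0.18 to 0.016 with 1 library left out, each value within 0.19 of the -0.09 of the main fit. This 0.19 is the SD between libraries of a group, pooled over the groups, of the median member deviation. It is not the error of a difference between groups. The number of libraries (3 a group) limits the precision, and members that RefSeq lists with pseudogene copies (Ccnb1, Ccnb2, Pcna and Tyms) are uncertain where reads align to both.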
